A study of Mus musculus with 3 samples.

Results

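AMPA receptors and the scaffolds that hold them were followed through the nuclei of the mouse lumbar spinal cord. The 10 genes were taken by their symbols: the subunit genes Gria1, Gria2, Gria3 and Gria4, the scaffold genes Grip1, Grip2 and Pick1, and the auxiliary subunit genes Cacng2, Cacng3 and Cnih2. All 10 had a row of their own among the 31040 genes of the count table. The study sequenced single nuclei of 12 mice aged 90 days, around the start of symptoms in this model of amyotrophic lateral sclerosis, and asked how neurons and glia of the cord differ between genotypes. The 6 SOD1G93A mice (3 females and 3 males) were B6.Cg-Tg(SOD1*G93A)1Gur/J, which carry a human SOD1 transgene with the G93A mutation in many copies, and the 6 WT mice (3 females and 3 males) were C57BL/6J littermates without it. Each of 3 sequencing pools, called A, B and C here, held 1 mouse of each sex and genotype, told apart by hashtag oligonucleotides on their nuclei. Per the paper, a given hashtag marked the same sex and genotype in every pool. An effect of the hashtag thus cannot be told apart from one of sex and genotype. The transgene raises SOD1 in every cell of the cord, so an effect of SOD1 within a cell type and one from the cells around it cannot be told apart.

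AMPA receptors are tetramers of the proteins GluA1 to GluA4, encoded by Gria1 to Gria4, and carry most of the fast excitatory transmission between neurons. A receptor with an edited GluA2 subunit lets little calcium through, and a receptor without GluA2 lets calcium in, a property that has long been discussed for spinal motor neurons. Grip1 and Grip2 are proteins with several PDZ domains that bind the tails of GluA2 and GluA3 and tie receptors to kinesin transport and to the synapse, Pick1 binds the same tails and takes part in removing receptors from the surface, Cacng2 (stargazin) and Cacng3 bring receptors to the synapse and slow their closing, and Cnih2 (cornichon) acts in their export and gating.

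The ends of the coding sequences are shown because the scaffolds bind there. Each line gives the last coding bases and the stop codon, with the last 12 coding bases in capitals, read 5′ to 3′ on the strand of the gene from the GRCm38 genome and its GENCODE M21 annotation. They are the ends of 1 transcript per gene, of 3, 2, 4 and 4 transcripts with a stop codon for Gria1 to Gria4, and splicing can give other tails, so each line stands for the transcript named below.
Gria1: atgcccttgggaGCCACAGGATTGtaa
Gria2: tatggcatcgagAGTGTTAAAATTtag
Gria3: tatggaacagaaAGTGTTAAGATCtag
Gria4: gctgtcattgcaTCGGACCTACCAtaa
Of the 12 capital bases, Gria3 shared 10 with Gria2, while Gria1 and Gria4 each shared 2. These stretches lie in coding exons at chr11:57327620-57327646 (plus strand, exon 16 of 16 of Gria1-202), chr3:80689106-80689132 (minus strand, exon 15 of 16 of Gria2-201), chrX:41672438-41672464 (plus strand, exon 15 of 16 of Gria3-201) and chr9:4420152-4420178 (minus strand, exon 17 of 17 of Gria4-202). The genes themselves are long: Gria1 spans 319 kb, Gria2 121 kb, Gria3 278 kb, Gria4 378 kb and Grip1 633 kb (chromosome 10, 119453830 to 120087261, plus strand). Grip2 spans 65.7 kb, Cacng2 128 kb and Cacng3 98.9 kb, whereas Pick1 spans 20.3 kb and Cnih2 5.65 kb. Reads from introns were counted, and a long gene gives more of them, so levels of different genes are ranked per kb of gene. Sums of UMIs over all nuclei are given as counts and are no such ranking.

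The table held 14662 nuclei and 206486779 UMIs (unique molecular identifiers, each standing for 1 captured RNA molecule), with 548 to 2259 nuclei and 6411715 to 36668441 UMIs per mouse. Cell types and neuron sub-types are those deposited: 10 types, 1 of them motor neurons and 1 the remaining neurons, and 9 sub-types of the latter, namely dorsal excitatory (DE) and inhibitory (DI), mid excitatory (ME) and inhibitory (MI), ventral excitatory (VE) and inhibitory (VI), ventral cholinergic neurons other than motor neurons (VC), ventral mixed (VM) and neurons of unclear sub-type. A level is given as CPM, the share of a gene in the UMIs of that cell type in that mouse, scaled to a sum of 1000000. Motor neurons were the scarcest of the neurons, with 67 nuclei (44 WT and 23 SOD1G93A), 1 to 11 per mouse and 27658 to 651446 UMIs per mouse. Chat, which makes acetylcholine, had a UMI in 42 of the 44 WT and 22 of the 23 SOD1G93A motor neuron nuclei. Nuclei labelled microglia and Schwann and meningeal cells went partly against their labels: the summed level of the neuron markers Grin1, Rbfox3 and Camk2a had a WT median of 490 CPM in microglia and 488 CPM in Schwann and meningeal cells, close to the 526 CPM of motor neurons, against 141 CPM in astrocytes. The same sum was 360 CPM in oligodendrocyte precursors (OPCs) and 177 CPM in oligodendrocytes. Not all neurons were as low as motor neurons. Grin1 alone had 120 to 271 CPM in WT motor neurons, 206 to 367 CPM in VC and 337 to 368 CPM in VI. Schwann and meningeal nuclei also held the astrocyte marker Aqp4, at 252 to 691 CPM in WT mice against 583 to 776 CPM in astrocytes. The levels of the AMPA receptor genes in microglia, Schwann and meningeal cells, OPCs and oligodendrocytes are given with these limits. Across the pools, 5 nuclear barcodes were shared by A and B, 6 by A and C and 4 by B and C.

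Over all nuclei, Gria4 gave 338158 UMIs and was found in 88.6% of nuclei, Grip1 229239 (71.4%), Gria2 168604 (83.0%), Gria3 112545 (68.1%) and Gria1 90221 (66.6%). Cacng2 gave 25176 UMIs in 48.8% of nuclei, Cacng3 9521 in 26.8% and Grip2 7328 in 28.1%. Cnih2 gave 973 UMIs in 5.97% of nuclei and Pick1 88 UMIs in 0.593%, so that little can be said of Pick1 and Cnih2 in any cell type at this depth.

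The subunit genes differed in level between the cell types and neuron sub-types of the WT cord. Gria1 was highest in inhibitory neurons of the dorsal horn, with 819, 917 and 984 CPM as the lowest, median and highest of the 6 WT mice in DI, followed by VC (629, 751 and 824 CPM) and VM (591, 706 and 1100 CPM), and all 3 ranges overlapped. Its level in motor neurons was 89.0, 150 and 190 CPM. Gria2, the subunit gene that decides calcium entry, was highest in DE with 1148, 1413 and 1685 CPM, next in DI with a median of 1040 CPM, and the ranges of these neighbours overlapped. Motor neurons had 480, 599 and 734 CPM of Gria2, apart from the 379 to 467 CPM of astrocytes below them, and astrocytes in turn stood apart from oligodendrocytes at 193 to 376 CPM. Gria3 was highest in motor neurons with 1015, 1170 and 1439 CPM and next in VI with 933, 981 and 1095 CPM, which overlapped, while VI stood apart from VE at 829 to 898 CPM. Gria4 had its highest median in motor neurons (2223, 2588 and 2817 CPM), and this range overlapped with those of VE (median 2321 CPM) and VI (2299 CPM). Among glia, Gria4 had a median of 1900 CPM in OPCs, 1097 CPM in astrocytes and 649 CPM in oligodendrocytes, and Gria2 had 761 CPM in OPCs. OPCs had more Gria2 and more Gria4 than oligodendrocytes in 12 of 12 mice, by median ratios of 2.83 and 3.23. The neuron markers were also higher in OPCs, as given above, and their part in these ratios was not tested.

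**Figure D1:**
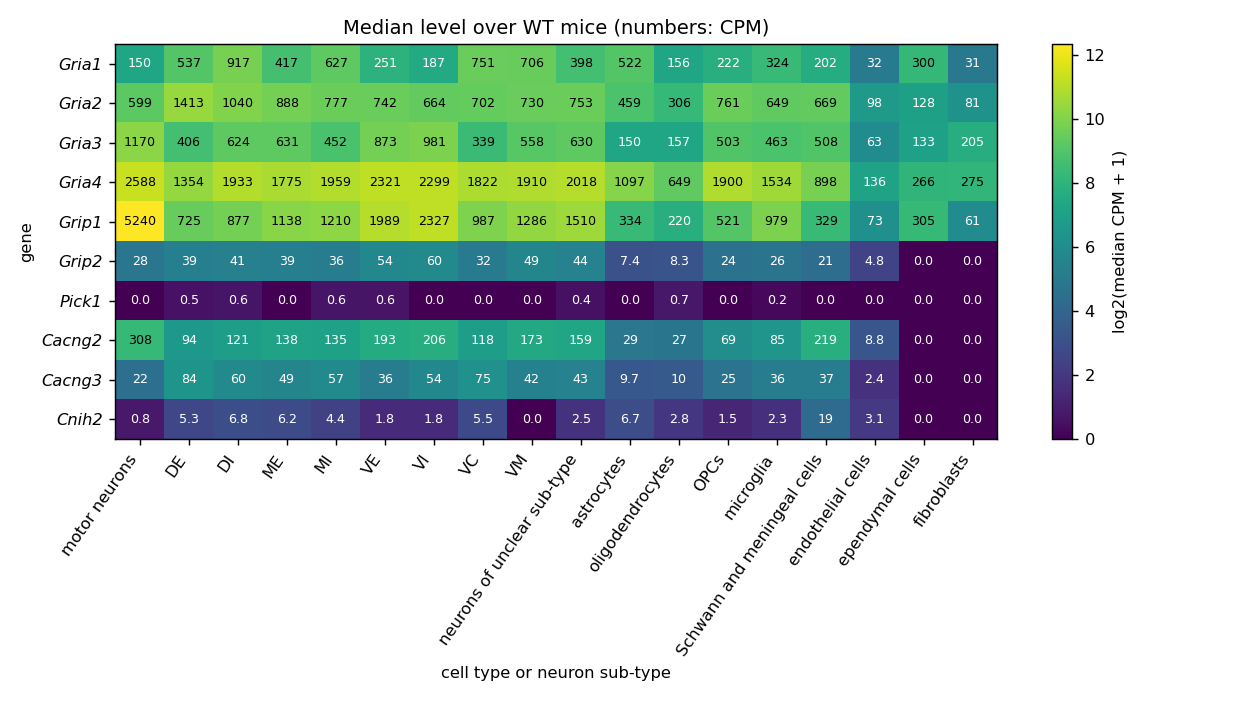
Median level of each gene over WT mice in CPM, by cell type or neuron sub-type (columns) and gene (rows), with colour on a log2(median CPM + 1) scale and the CPM printed in each cell. Grip1 in motor neurons, at 5240 CPM, is the brightest cell of its row, while Gria1 and Cacng3 are brighter in dorsal sub-types than in motor neurons.

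Among interneurons, DE was compared with VE and DI with VI within each mouse, and the direction of the difference depended on the gene. The other ventral sub-types did not all follow VE and VI. In WT mice Gria1 ran from 629 to 824 CPM in VC and from 591 to 1100 CPM in VM, and both ranges overlapped with that of DI. DE was above VE in 12 of 12 mice for Gria1 (median ratio 2.27), Gria2 (1.83) and Cacng3 (2.20). DE was below VE in 12 of 12 mice for Gria3 (median ratio 0.462), Gria4 (0.576), Grip1 (0.310) and Cacng2 (0.448). Inhibitory neurons had the same directions. DI was above VI in 12 of 12 mice for Gria1 (median ratio 4.65) and Gria2 (1.47), and below VI in 12 of 12 mice for Gria3 (0.652), Gria4 (0.841) and Grip1 (0.382) and in 11 of 12 for Cacng2 (0.620). Cacng3 was higher in DI than in VI in 8 of 12 mice. The sub-types were assigned from the RNA of the same nuclei, so these are descriptions without a test.

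Motor neurons differed from the other neurons in the make-up of their subunit RNA. Within a mouse they had less Gria1 (median ratio 0.315) and less Gria2 (0.604) than neurons in 12 of 12 mice, and more Gria3 (1.76) in 12 of 12, with more Gria4 in 10 of 12. These mice are of both genotypes, and in WT mice alone the Gria4 ratio ran from 1.18 to 1.45. Per kb of gene, Gria2 made up 25.7%, 29.8% and 36.2% of the summed Gria1 to Gria4 level in WT motor neurons (lowest, median and highest mouse), and 58.6%, 63.2% and 68.6% in DE, so that these ranges were far apart. By median, Gria4 was the largest share in motor neurons with 40.8%, followed by Gria2, by Gria3 with 25.8% and by Gria1 with 2.70%. This order did not hold in every WT mouse. The WT levels per kb overlapped for Gria4 (5.88 to 7.45 CPM per kb) and Gria2 (3.95 to 6.04). Those of Gria2 and Gria3 (3.65 to 5.18) overlapped as well. In DE the order of medians was Gria2, Gria4 (20.2%), Gria1 (8.86%) and Gria3 (8.24%). VI was the sub-type nearest to motor neurons, with 34.5% Gria2 and 22.5% Gria3, and its Gria2 range of 27.8% to 39.3% overlapped with that of motor neurons. Astrocytes had medians of 42.4% Gria2, 33.1% Gria4, 19.4% Gria1 and 6.09% Gria3, but in the WT male of pool C Gria4 was above Gria2. The median Gria2 share of SOD1G93A motor neurons was 32.3%, with a range of 28.6% to 42.7% that overlapped with the WT range, and it was the higher share in 5 of 6 pairs matched by sex and pool. Since these shares are of nuclear RNA with introns, they are not the composition of receptors. The orders in motor neurons and astrocytes also depend on the division by gene length. In CPM without it, Gria3 was above Gria2 in the motor neurons of every WT mouse (1015 to 1439 against 480 to 734 CPM). In astrocytes without it, Gria1 was above Gria2 in every WT mouse, and Gria4 was above both.

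**Figure D2:**
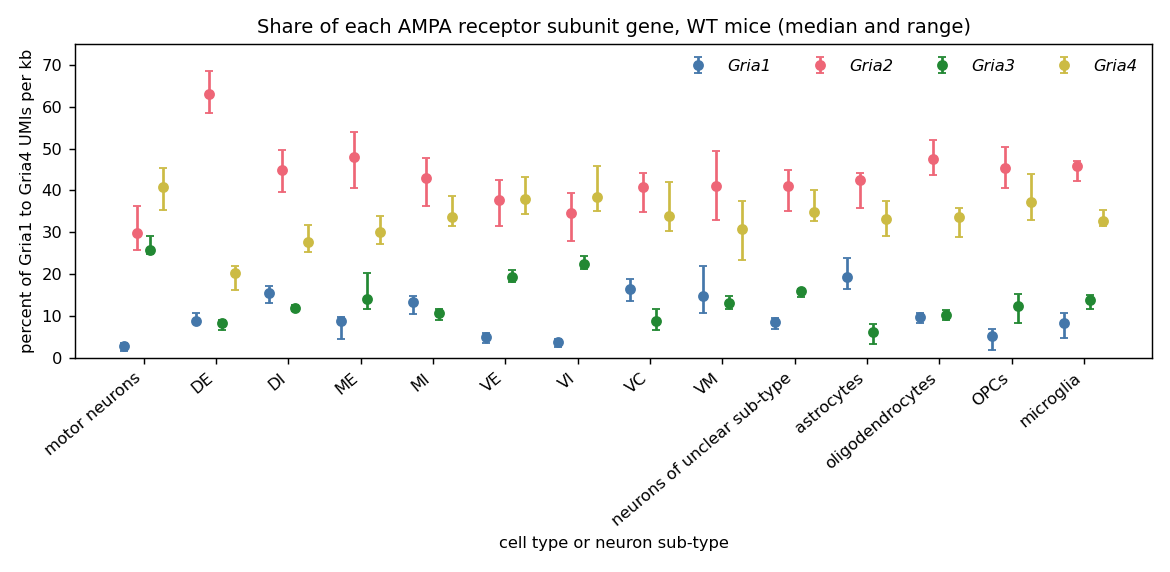
Share of Gria1, Gria2, Gria3 and Gria4 in their summed level per kb of gene (percent, vertical axis) in WT mice by cell type or neuron sub-type, points being medians over 6 mice and bars the lowest and highest mouse. Gria2 is 63.2% in DE and 29.8% in motor neurons, where Gria4 has 40.8%.

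Grip1, the scaffold gene, was higher in motor neurons than in every other cell type, with no overlap of the WT ranges. Its WT levels in motor neurons were 5743, 4412 and 6017 CPM in the females of pools A, B and C and 3234, 4737 and 6144 CPM in the males. The lowest of these lay above the highest value of every other type and sub-type, the next being VI (1898, 2327 and 2898 CPM) and VE (1682, 1989 and 2359 CPM), which overlapped with each other. DE had a median of 725 CPM, astrocytes 334 CPM and oligodendrocytes 220 CPM. Within a mouse, motor neurons had more Grip1 than the other neurons in 12 of 12 mice, with a median ratio of 2.90. Of 8800 neuron nuclei, 30 (0.341%) reached the median of the WT motor neuron nuclei, which was 4917 CPM. Per kb of gene, Grip1 had the highest median of the 10 genes in WT motor neurons, 8.27 CPM per kb against 6.84 for Gria4, 4.93 for Gria2, 4.21 for Gria3 and 2.40 for Cacng2, although the ranges of Grip1 and Gria4 overlapped (5.10 to 9.70 and 5.88 to 7.45). In neurons the order was another, with 7.84 CPM per kb for Gria2, 5.01 for Gria4, 2.23 for Gria3 and 2.12 for Grip1.

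The other scaffold and the auxiliary subunit genes had patterns of their own over the cell types. Grip2, the relative of Grip1, had its highest median in VI (39.4, 59.8 and 83.6 CPM). This range overlapped with that of VM (31.9 to 75.6 CPM). Grip2 did not share the height of Grip1 in motor neurons. Its median there was 27.7 CPM, and its range of 16.7 to 53.4 CPM overlapped with that of VI. Cacng2 was highest in motor neurons with 193, 308 and 368 CPM, a range that overlapped with those of Schwann and meningeal cells (median 219 CPM) and VI (206 CPM). Cacng3 went the other way, with 68.3, 83.7 and 89.1 CPM in DE and a median of 22.0 CPM in motor neurons. The DE range overlapped with that of the ventral VC, which ran from 31.5 to 175 CPM. Cnih2 had its highest median in Schwann and meningeal cells (19.3 CPM, from 0 to 66.0 CPM), and its median was below 7 CPM in every neuron sub-type. Median levels of Pick1 ran from 0 to 0.709 CPM, and the 6 WT mice had no Pick1 UMI in motor neurons.

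The pattern of each gene over 16 cell types and sub-types was compared with that of 11754 genes as Pearson's r of the mean log2(CPM + 1) in WT mice. These points share mice, pools and the division into neurons and glia, so many genes have a high r and the values are a description. The highest r for Grip1 was that of Grip1os2 (0.978), an antisense gene on the minus strand of chromosome 10 (119746063 to 119761699) inside Grip1, followed by Gm2762 (0.972) and Clmp (0.971). Cell Ranger, which made the counts, gives the antisense gene a count of its own, but the sources used here do not state its strand setting, so the values of Grip1os2 are uncertain. Gria3 was most like Osbpl6 (0.971), Flt3 (0.967) and Galnt9 (0.966), and Gria4 was most like Kcnma1 (0.971), Fgf14 (0.969) and Strbp (0.968). The nearest genes to Gria2 were 2900011O08Rik (0.969), Lhfpl4 (0.952) and Neurl1a (0.944), those to Cacng2 were Camta1 (0.980), 2410018L13Rik (0.978) and Syn1 (0.977), and those to Gria1 were Robo2 (0.935), Cacnb3 (0.894) and Fam124a (0.889). Between the AMPA receptor genes, r was 0.954 for Gria3 and Cacng2, 0.925 for Grip1 and Gria3 and 0.920 for Grip1 and Gria4, but 0.387 for Grip1 and Gria1.

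In motor neurons of SOD1G93A mice Grip1 fell to a range that overlapped with that of ventral inhibitory neurons. The SOD1G93A values were 2751, 3105 and 2314 CPM in the females of pools A, B and C and 1775, 2964 and 2578 CPM in the males. All 6 lay below all 6 WT values given above, and each SOD1G93A mouse was below the WT mouse of its sex and pool. The mean was 5048 ± 1133 CPM in WT and 2581 ± 484 CPM in SOD1G93A mice (SD, n = 6 each), and limma gave a log2 fold change of -1.07 (SE 0.18, 95% interval -1.44 to -0.69) with an adjusted p of 0.00929, the fifth smallest p of 5118 genes tested. In the same comparison 3.07% of all genes passed the threshold of 0.1 and 1.64% passed it with a lower level, and 0.488% had SOD1G93A values that all lay below the WT values (1.04% counting both directions). Of the 10 genes, 8 were tested in motor neurons and Grip1 was the 1 that passed. The paper had already listed Grip1 among the genes significantly lower in SOD1G93A motor neurons of these same mice. The 10 genes were chosen with earlier results of these data known, so this count is no independent support. SOD1G93A VI neurons had 1880, 2025 and 2387 CPM of Grip1, which overlapped with SOD1G93A motor neurons (1775, 2664 and 3105 CPM). Within a mouse, motor neurons stayed above VI in 5 of the 6 SOD1G93A mice, the exception being the male of pool A with 1775 against 1896 CPM.

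Grip1 had negative fold changes in both sexes. The female SOD1G93A values rest on 2 nuclei (pool A), 4 (pool B) and 1 (pool C), and the male ones on 6, 5 and 5. The log2 fold change was -1.09 in males (limma, adjusted p = 0.0463, where 1.97% of genes passed) and -1.04 in females (adjusted p = 0.249, where 0.0391% passed), and the difference between the sexes was -0.05 with a 95% interval of -0.80 to 0.71. The median nucleus had 4917 CPM in WT and 2146 CPM in SOD1G93A mice, with quartiles of 3223 to 6045 CPM and 1442 to 2879 CPM, and every motor neuron nucleus had a Grip1 UMI. A nucleus of SOD1G93A motor neurons had a median of 60146 UMIs against 43895 in WT, but with fewer nuclei the sums per mouse that were tested were shallower, with 27658, 252058 and 415305 UMIs in SOD1G93A and 168555, 410175 and 651446 UMIs in WT mice. With Chat-positive nuclei only, a selection made after the data were seen, the log2 fold change was -1.09 (limma, adjusted p = 0.0101, 2.93% of genes passed). That selection kept 42 of 44 WT and 22 of 23 SOD1G93A nuclei, so nearly the same nuclei were fitted again and little could change. The antisense Grip1os2 had 114, 179 and 193 CPM in WT and 52.0, 80.3 and 145 CPM in SOD1G93A motor neurons, with a log2 fold change of -1.24 (SE 0.21, limma adjusted p = 0.00929). The summed motor neuron markers Slit3, Prph and Chat were not lower in median, at 1097, 1161 and 1649 CPM in WT and 680, 1489 and 2422 CPM in SOD1G93A mice. Slit3 made up most of this sum. Taken alone, Slit3 differed by 0.01, Prph by 0.54 and Chat by -0.12 on the log2 scale (limma adjusted p of 0.990, 0.556 and 0.895). Markers of alpha motor neurons, the type that drives muscle force, summed to medians of 485 and 451 CPM, but their members went different ways without passing in limma. Vipr2 differed by -1.12 on the log2 scale (95% interval -1.96 to -0.29, adjusted p = 0.169), Chodl by -1.09 (-2.27 to 0.09, adjusted p = 0.353), Rbfox3 by -0.46 (adjusted p = 0.321) and Spp1 by 2.49 (0.38 to 4.61, adjusted p = 0.242), and Mmp9 was too low to be tested. Chodl and Rbfox3 were lower in 6 of 6 pairs and Vipr2 in 5 of 6. Markers of gamma motor neurons, which set spindle tension, summed to medians of 1014 and 1156 CPM. Inhibitory neuron markers had medians of 6.55 CPM (0 to 49.8) in WT and 44.5 CPM (0 to 103) in SOD1G93A mice, and the part of any of these markers in the Grip1 difference was not tested.

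**Figure D3:**
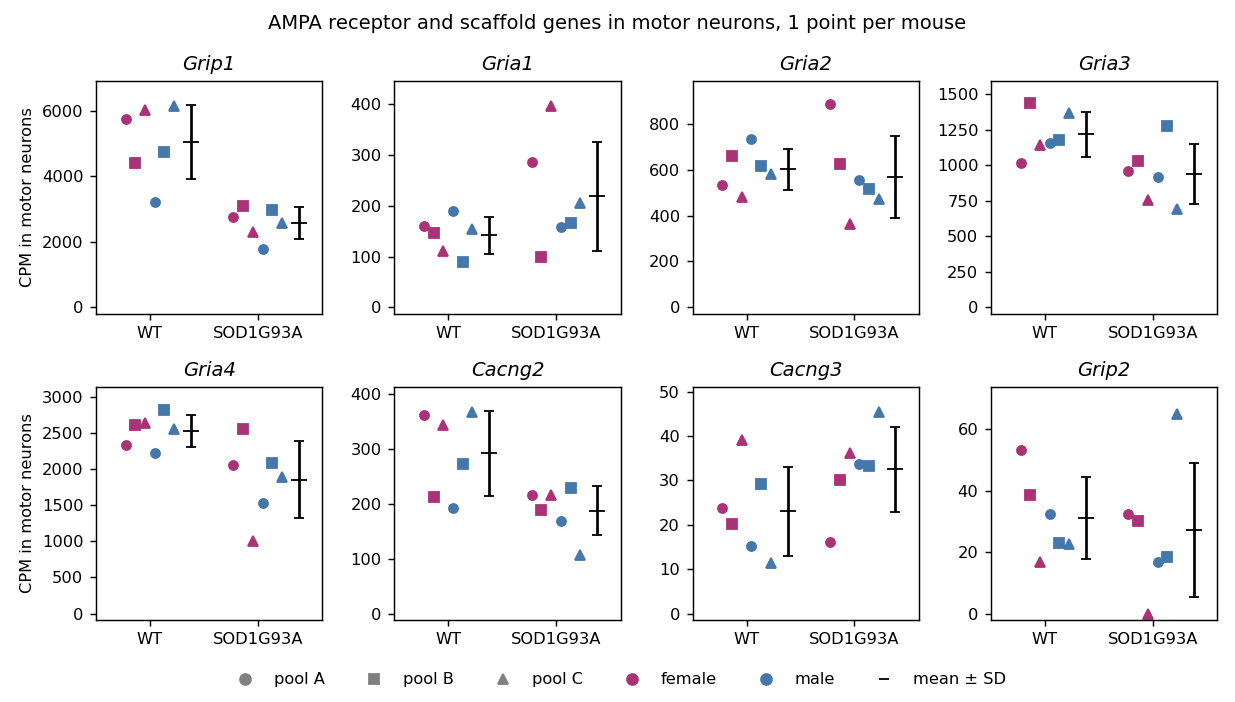
Level in motor neurons (CPM, vertical axis) of 8 genes in WT and SOD1G93A mice, 1 point per mouse, with colour for sex, shape for pool and a bar for the mean ± SD of 6 mice. The 6 SOD1G93A values of Grip1 sit at 1775 to 3105 CPM, all below the 3234 to 6144 CPM of the WT mice, while the groups overlap for the other 7 genes.

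Several receptor genes had lower means in SOD1G93A motor neurons without passing the threshold. Gria4 had 2223, 2588 and 2817 CPM in WT and 1012, 1973 and 2560 CPM in SOD1G93A mice as lowest, median and highest, and was lower in 6 of 6 pairs of the same sex and pool (log2 fold change -0.59, SE 0.18, 95% interval -0.96 to -0.22, limma adjusted p = 0.108). Cacng2 was lower in 6 of 6 pairs, with means of 292 ± 77.1 and 188 ± 45.1 CPM (log2 fold change -0.73, SE 0.24, limma adjusted p = 0.150). Gria3, the partner subunit that Grip1 binds, had 1218 ± 158 and 940 ± 208 CPM and was lower in 5 of 6 pairs (log2 fold change -0.50, SE 0.17, limma adjusted p = 0.142). Gria2 differed by -0.18 (95% interval -0.53 to 0.16, adjusted p = 0.650), Grip2 by -0.12 (adjusted p = 0.924), Gria1 by 0.29 (adjusted p = 0.573) and Cacng3 by 0.39 (adjusted p = 0.669) in the same limma fit. Gria1 in SOD1G93A mice ran from 98.6 to 398 CPM, the highest value coming from a female of pool C with 1 nucleus and 11 Gria1 UMIs. Without the mice of fewer than 3 motor neuron nuclei, the Gria1 difference turned to -0.10. The Grip2 difference ran from -0.62 to 0.12 when single mice were left out. Of the 8 genes tested, 6 had a negative fold change, with a median of -0.34 against 0.00 over all genes, and Pick1 and Cnih2 were too low to be tested. Whether Gria4, Cacng2 and Gria3 passed depended on the settings. Over 22 alternatives Gria4 passed in 6 (adjusted p from 0.00226 to 0.471), Cacng2 in 4 (0.0369 to 0.504) and Gria3 in 2 (0.0286 to 0.437). Cacng2 passed without the filter on low counts and when the WT female of pool B, the WT male of pool A or the SOD1G93A male of pool B was left out alone, and Gria3 without the filter and without the SOD1G93A male of pool B.

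Astrocytes, which carry AMPA receptors of their own, showed lower Gria2 in SOD1G93A mice by a small margin. The WT values were 379, 463 and 467 CPM in the females of pools A, B and C and 434, 462 and 456 CPM in the males, and the SOD1G93A values were 333, 324 and 416 CPM and 380, 307 and 421 CPM. Each SOD1G93A mouse was below its WT partner of the same sex and pool, but the groups overlapped through the WT female of pool A. Of all genes tested in astrocytes, 0.417% had SOD1G93A values that all lay below the WT values, and 1.32% had groups without overlap in either direction. The log2 fold change was -0.38 (SE 0.11, 95% interval -0.60 to -0.15, limma adjusted p = 0.0891), in a comparison where 2.29% of 9347 genes passed and 0.909% passed with a lower level. The call did not pass in edgeR (adjusted p = 0.120), nor in limma when 1 of 10 of the 12 mice was left out, which gave adjusted p-values of 0.111 to 0.198. It passed without the WT female of pool B (0.0914) or the SOD1G93A female of pool A (0.0842). Gria4 had means of 1118 ± 206 and 861 ± 135 CPM, with a log2 fold change of -0.45 (SE 0.13, limma adjusted p = 0.106), and was lower in 5 of 6 pairs. Over 21 alternatives Gria4 passed in 7, of which 3 left out 1 mouse (adjusted p from 0.00113 to 0.346 over all alternatives). The selection of nuclei given below is among them. The remaining members tested were Grip1 at -0.26 (adjusted p = 0.398), Cacng2 at -0.25, Gria3 at -0.13 and Gria1 at -0.06, so that all 6 members tested were negative, with a median of -0.25 against 0.02 over all genes.

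Neuron markers had the higher median in SOD1G93A astrocytes: Grin1, Rbfox3 and Camk2a summed to 103, 141 and 209 CPM in WT and 143, 188 and 244 CPM in SOD1G93A astrocytes. Of these, Grin1, Rbfox3 and Camk2a did not pass in limma (adjusted p of 0.984, 0.228 and 0.229). An oligodendrocyte marker was also higher in SOD1G93A astrocytes: Mbp, a myelin protein gene, had 570, 704 and 864 CPM in WT and 731, 1064 and 1473 CPM in SOD1G93A mice and rose (log2 fold change 0.50, 95% interval 0.27 to 0.73, limma adjusted p = 0.0247), while the marker Mog (0.00, adjusted p = 0.998) did not pass. Of the astrocyte markers, Gfap (log2 fold change 1.12, limma adjusted p = 7.32e-07) and Aqp4 (0.80, adjusted p = 0.00013) rose. Aldh1l1 (-0.20, limma adjusted p = 0.570) did not pass. The part of any of these markers in the differences of Gria2 and Gria4 was not tested. Astrocyte nuclei without a UMI of the 3 neuron markers were summed again, a choice made after the data were seen. This kept 637 of 927 WT and 408 of 628 SOD1G93A nuclei, with medians of 4771 and 5204.5 UMIs per nucleus against 5219 and 5554.5 in all astrocytes. In them Gria4 had 944, 1023 and 1429 CPM in WT and 551, 782 and 852 CPM in SOD1G93A mice, without overlap and lower in 6 of 6 pairs (log2 fold change -0.62, SE 0.11, limma adjusted p = 0.00113), where 0.351% of genes had all SOD1G93A values below the WT values. Gria2 had 311, 395 and 467 CPM in WT and 230, 275 and 315 CPM in SOD1G93A mice, overlapping by 1 WT mouse (log2 fold change -0.55, SE 0.12, limma adjusted p = 0.00647). Grip1 fell as well (log2 fold change -0.53, adjusted p = 0.0605), and Gria3 (-0.41, adjusted p = 0.295) and Gria1 (-0.11, adjusted p = 0.877) did not pass in limma. Of 6841 genes tested in these nuclei, 4.08% passed, so the threshold was also crossed more often in general. Mbp still had 505, 674 and 810 CPM in WT and 717, 1210.3 and 1318 CPM in SOD1G93A mice there.

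**Figure D4:**
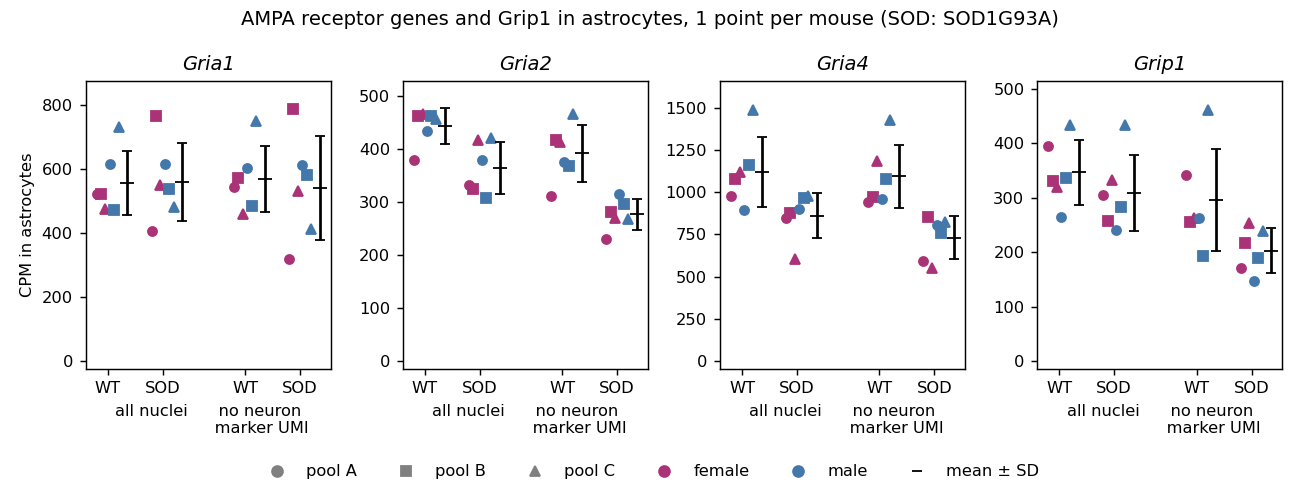
Level in astrocytes (CPM, vertical axis) of Gria1, Gria2, Gria4 and Grip1 by genotype, 1 point per mouse, in all astrocyte nuclei (left of each panel) and in those without a neuron marker UMI (right), with the mean ± SD of 6 mice. In the selected nuclei the SOD1G93A values of Gria4 (551 to 852 CPM) lie below all WT values (944 to 1429 CPM), and Gria1 overlaps throughout.

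In the remaining cell types none of the AMPA receptor genes passed. Over all cell types 58 tests of the members were made by genotype with limma, of which 2 passed and 10 had an unadjusted p under 0.05, against 0.568% passing among the 68984 tests of all genes. In edgeR 1 passed and in DESeq2 4. The shares of all genes passing in edgeR or DESeq2, or with an unadjusted p under 0.05, are not given here. Those counts therefore have no background beside them. Since the members were chosen with earlier results of these data known, these counts are no test of the set. In neurons, where 0.0255% of 15681 genes passed, the members lay close to 0, from -0.14 for Grip1 (95% interval -0.35 to 0.08) to 0.12 for Gria1 (-0.05 to 0.29), with Gria2 at -0.05 (-0.19 to 0.10). In microglia, where 0.0759% of genes passed, Grip1 had means of 931 ± 144 and 728 ± 146 CPM (log2 fold change -0.38, limma adjusted p = 0.141) and Cacng3 had 32.2 ± 12.2 and 48.5 ± 15.3 CPM (0.55, limma adjusted p = 0.339), in nuclei that carried neuronal RNA as said above. Gria1 in oligodendrocytes differed by -0.59 (95% interval -1.08 to -0.10, limma adjusted p = 1.00). The 9 neuron sub-types gave 74 tests with 0 passing in limma, edgeR and DESeq2, and 6, 5 and 1 of them had an unadjusted p under 0.05, where 0.0252% of 75459 tests of all genes passed in limma. The smallest limma p there was that of Grip1 in DE, with 712 ± 143 CPM in WT and 556 ± 26.8 CPM in SOD1G93A mice (log2 fold change -0.34, SE 0.12, adjusted p = 0.497).

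**Figure D5:**
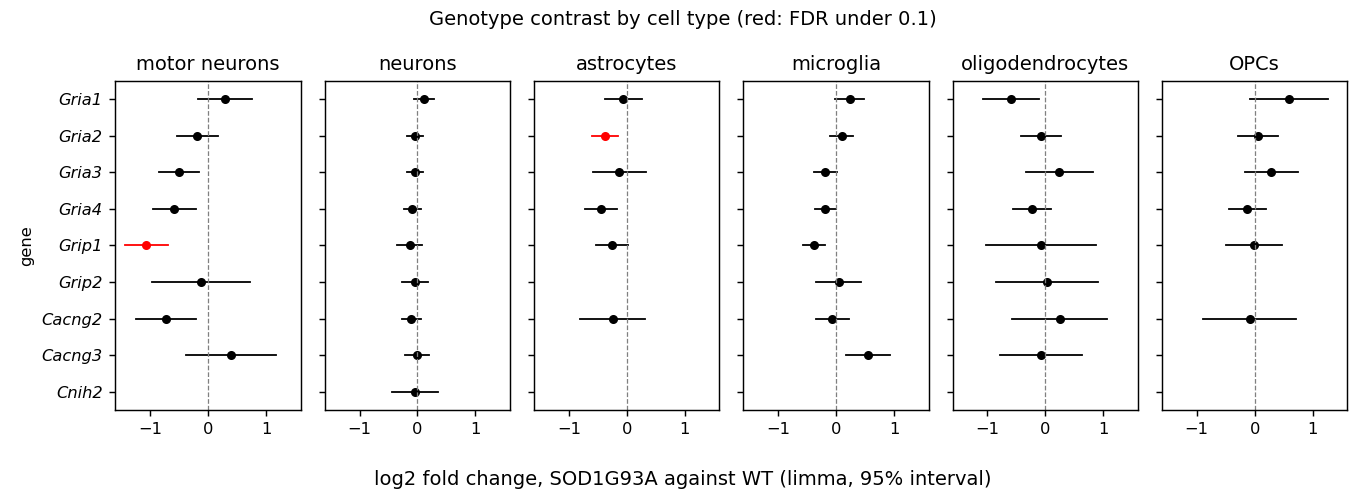
Log2 fold change between SOD1G93A and WT mice (horizontal axis) of each gene tested (rows) in 6 cell types (panels), with limma's 95% interval as the bar and red for an adjusted p under 0.1. Red marks Grip1 in motor neurons at -1.07 and Gria2 in astrocytes at -0.38, and in neurons the intervals are narrow around 0.

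Sex made no difference that passed. None of 58 tests of females against males passed in limma, edgeR or DESeq2, with 2, 1 and 1 unadjusted p under 0.05, where 0.159% of the tests of all genes passed in limma. Gria3, which lies on the X chromosome, differed between females and males by -0.01 in motor neurons (95% interval -0.36 to 0.34) and by -0.00 in neurons (-0.14 to 0.14) on the log2 scale. The genotype difference did not depend on sex in any cell type by a test that passed (58 tests, 0 passing in limma, edgeR and DESeq2, and 3, 3 and 4 unadjusted p under 0.05), where 0.0058% of the tests of all genes passed in limma. Among the sub-types, where 0.0782% of the tests of all genes passed, 1 of 74 tests did: Grip1 in neurons of unclear sub-type had a genotype difference that was higher in males by 0.73 (SE 0.15, 95% interval 0.41 to 1.05, limma adjusted p = 0.0574, where 0.459% of 11109 genes passed). The females had 1667, 1528 and 1966 CPM in WT and 1041, 1295 and 1419 CPM in SOD1G93A mice, without overlap, as for 3.33% of all genes with lower SOD1G93A values, and the males 1118, 1492 and 1463 CPM and 1395, 1660 and 1684 CPM, with overlap. In females alone the log2 fold change was -0.50 (limma adjusted p = 0.0438, where 0.711% passed) and in males 0.23 (adjusted p = 0.997, where 0.027% passed). This call held in 10 of 19 alternatives, and edgeR gave an adjusted p of 0.147.

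Other genes that build, tether and place AMPA receptors were taken as 4 lists of 59 genes, also chosen with earlier results of these data known. Among 11 auxiliary subunit genes, 6 were tested in astrocytes, where 2.29% of all genes passed, and 1 passed: Shisa6, whose protein keeps AMPA receptors at the synapse and from desensitizing, had 217, 244 and 378 CPM in WT and 120, 178 and 246 CPM in SOD1G93A mice (log2 fold change -0.61, SE 0.12, limma adjusted p = 0.0117, lower in 6 of 6 pairs). The part of the markers Mbp, Gfap and Aqp4, higher in the same nuclei as given above, was not tested for Shisa6 or any other list gene in astrocytes. All 6 auxiliary subunit genes tested had a negative fold change there, with a median of -0.12, the highest being Shisa9 at -0.02. In motor neurons 5 of the 11 were tested and 0 passed in limma, edgeR or DESeq2, with 0 unadjusted p under 0.05 in each, from -0.37 for Shisa6 to 1.03 for Shisa9, whose levels were from 0 to 182 CPM. The 7 assembly factors had 6 members tested in motor neurons and 7 in astrocytes, with 0 passing in limma, edgeR or DESeq2 and 0 unadjusted p under 0.05 in each. Cpt1c, an endoplasmic reticulum partner of GluA1, was the lowest in motor neurons (-0.51, adjusted p = 0.391) and Frrs1l, needed for receptor assembly, the highest (0.02), and in astrocytes Abhd6 was at -0.32 and Porcn at 0.60.

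Of 25 scaffold and trafficking genes, 19 were tested in motor neurons, where 3.07% of all genes passed, and 1 passed, Prkca. Prkca encodes protein kinase C alpha, which phosphorylates the GluA2 tail and so frees it from Grip1. It had 249, 160 and 530 CPM in WT females and 242, 269 and 312 CPM in WT males, and 103, 90.1 and 36.2 CPM in SOD1G93A females and 116, 114 and 156 CPM in SOD1G93A males of pools A, B and C. The groups did not overlap, as for 0.488% of all genes with lower SOD1G93A values, and limma gave a log2 fold change of -1.34 (SE 0.24, 95% interval -1.83 to -0.85, adjusted p = 0.00929). In astrocytes 21 were tested, against 2.29% of all genes passing, and Homer2, a postsynaptic adaptor of metabotropic glutamate receptors, passed, with 46.8, 67.9 and 89.2 CPM in WT and 32.6, 41.0 and 57.3 CPM in SOD1G93A mice (log2 fold change -0.72, SE 0.19, limma adjusted p = 0.0653). Homer2 no longer passed without the WT female of pool C, the WT males of pools B or C, the SOD1G93A females of pools B or C or the SOD1G93A male of pool C, each left out alone (adjusted p of 0.120 to 0.263). Rab11a, of recycling endosomes, was the highest of the list in both types, at 0.57 in astrocytes (adjusted p = 0.118, higher in 6 of 6 pairs) and 0.53 in motor neurons (adjusted p = 0.412). The medians of this list were -0.02 in motor neurons and 0.09 in astrocytes.

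Of 16 synaptic organizers, secreted or adhesive proteins that gather AMPA receptors, 8 were tested in motor neurons and 1 passed, against 3.07% of all genes. Lrrtm3, a synaptic adhesion protein, had 1177, 1339 and 1454 CPM in WT and 651, 941 and 1265 CPM in SOD1G93A mice (log2 fold change -0.65, SE 0.17, limma adjusted p = 0.0648, lower in 5 of 6 pairs). Lrrtm3 no longer passed without the WT females of pools A or C, the WT male of pool C, the SOD1G93A female of pool C or the SOD1G93A males of pools A or C, each left out alone (adjusted p of 0.113 to 0.161). The list had a median of -0.45 in motor neurons against 0.00 over all genes, with 6 of 8 negative and Olfm1 the highest at 0.39. In astrocytes 10 were tested and 0 passed in limma, edgeR or DESeq2, with 1, 1 and 0 unadjusted p under 0.05, from Lrrtm1 at -0.26 to Nptx1 at 0.52. In the other cell types the 4 lists gave 262 tests by genotype, of which 0 passed in limma, edgeR or DESeq2 and 18, 14 and 9 had an unadjusted p under 0.05, and there 0.0385% of the tests of all genes passed in limma. The neuron sub-types gave 418 tests with 0 passing in each tool and 15, 14 and 10 unadjusted p under 0.05, against 0.0252% of all genes passing in limma.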

How the data were processed

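The authors made droplet libraries of nuclei from homogenized lumbar cord and deposited the counts, which are whole UMIs per gene and nucleus, without normalization. Per the labels and the paper's methods, reads were processed with Cell Ranger 3.1 (STAR 2.5.1b) on a pre-mRNA reference of mm10, nuclei were assigned to mice by hashtag, low-quality nuclei and nuclei with several or no hashtags were removed, and clusters made in Seurat 4.0.3 were given cell types from marker genes and SingleR. Doublets within a mouse were not marked, and no further nuclei were removed. A deposited table of integrated values was not used, and 1 oligodendrocyte marker is not reported here.

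UMIs were summed per mouse over each cell type and neuron sub-type. As in the paper's methods, genes were filtered (filterByExpr, minimum count 10) and fitted with limma 3.58.1 voom on TMMwsp factors of edgeR 4.0.16, with a term per sex and genotype group and a term per pool, and p-values were Benjamini-Hochberg adjusted over all genes of a cell type (threshold 0.1). Pools were blocked because the labels put 1 mouse of each group in each: deviations of mice of the same pool had a median correlation of 0.246 in neurons and 0.0204 in motor neurons. Alternatives were edgeR's quasi-likelihood test, DESeq2 1.42.0, other filters and factors, no pool term and leaving out each mouse. The script was tested on simulated counts. In motor neurons it recovered 58.5% of genes changed by 1 on the log2 scale and 91.5% of those changed by 2, with 12.4% of calls false. In astrocytes these were 73.5%, 100% and 9.78%. A motor neuron gene that did not pass may therefore still differ.

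The members and lists were chosen with earlier results of these data known. Named genes were the 10 members, list genes past the threshold, the highest and lowest of each list in motor neurons and astrocytes, and the 3 genes of most like pattern (mean CPM of at least 5). The median mouse had 289242.5 UMIs of motor neurons, 753792 of astrocytes and 11318 of fibroblasts, the shallowest type.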

Additional observations from a re-analysis of the deposited data

Results flagged for a closer look

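In 114 groups of 6 mice (members high enough to be tested in a cell type, by genotype), 9 held a mouse set apart from the other 5 by Dixon's criterion, and chance alone sets apart about 1 group in 20. Gria2 in astrocytes was 379 CPM in the female WT mouse of pool A against 434 to 467 CPM in the other WT mice. Gria4 in astrocytes was 604 CPM in the female SOD1G93A mouse of pool C against 848 to 976 CPM. Gria1 in ependymal cells was 1021 CPM in the male SOD1G93A mouse of pool A against 0 to 208 CPM, from 6 UMIs. Cacng3 in microglia was 8.19 CPM in the female WT mouse of pool A against 32.7 to 41.5 CPM, from 3 UMIs, and 78.1 CPM in the female SOD1G93A mouse of pool B against 38.3 to 51.7 CPM. Gria3 in OPCs was 180 CPM in the female SOD1G93A mouse of pool C against 482 to 647 CPM, from 2 UMIs. Cacng2 in oligodendrocytes was 67.4 CPM in the female WT mouse of pool A against 17.3 to 34.8 CPM. In Schwann and meningeal cells, Gria2 was 1314 CPM in the male WT mouse of pool B against 542 to 731 CPM, from 19 UMIs, and Grip1 was 1528 CPM in the male SOD1G93A mouse of pool B against 232 to 448 CPM, from 467 UMIs. In the same mouse and cell type the motor neuron markers also stood above those of the other SOD1G93A mice, with Slit3 at 412 CPM (28.4 to 74.7), Prph at 291 CPM (24.9 to 84.1) and Chat at 72.0 CPM (5.17 to 33.2), and their part in the Grip1 value was not tested.

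The genotype difference of Grip1 in neurons of unclear sub-type differed between males and females by 0.73 on the log2 scale, with an adjusted p of 0.0574 by limma, and of 0.000400 to 0.997 over 19 alternatives.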

How the results depend on the processing

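Grip1 in motor neurons passed under all 22 alternatives, with log2 fold changes of -1.21 to -0.94 and an adjusted p of at most 0.0692 (without the mice of fewer than 3 nuclei). The number of AMPA receptor genes passing by genotype in cell types was 2, and became 1 in edgeR (Grip1 in motor neurons), 4 in DESeq2, 6 without a filter on low counts and 1 to 4 without single mice. Without the pool term, the block used for pairing, it was 1. By sex it was 0, and 0 to 1 without single mice (Cacng2 or Cacng3 in OPCs, without the WT male or the SOD1G93A female in pool B). The number of other genes of the 4 lists was 4, and became 9 without the filter, 1 without the pool term (Prkca) and 2 to 6 without single mice. The shares of all genes passing under these alternatives are not given, so the counts have no background beside them. Gria2 in astrocytes was -0.38 in edgeR (adjusted p = 0.120), -0.39 without the filter (0.115), -0.37 without the pool term (0.142) and -0.42 to -0.33 without single mice (limma adjusted p of 0.0842 to 0.198), and it no longer passed when any of 10 of the 12 mice was left out, the exceptions being the WT female in pool B and the SOD1G93A female in pool A. Homer2 stopped passing in 7 alternatives (DESeq2 gave it no adjusted p), Lrrtm3 in 10, Shisa6 in 1 (without the pool term, adjusted p = 0.183) and Prkca in 0. Gria1 in motor neurons turned from 0.29 to -0.10 without the mice of fewer than 3 nuclei, and Grip2 in motor neurons ran from -0.62 to 0.12 without single mice, neither passing. The causes were not tested. Levels of 18 of 180 combinations of gene and cell type moved by more than 1 SD when nuclei were averaged and 11 when TMMwsp factors were applied, and the same 4 genes, Gria3, Gria4, Grip1 and Cacng2, had their highest median in motor neurons in all alternatives. The selections of nuclei with Chat or without neuron markers were added after the data were seen, as were a fit without sex groups and the alternatives of the list genes and of the sub-type interaction. The SOD1G93A females in pools A and C had 2 and 1 motor neuron nuclei, and leaving both out leaves 1 SOD1G93A female, which limits every value of that type.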
